A study of Mus musculus with 6 samples.

Results

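Integrins are the receptors by which cells hold on to the extracellular matrix. Each is a pair of an alpha and a beta subunit, and the pair decides which ligand is bound. Laminins are trimers of an alpha, a beta and a gamma chain that polymerise into the basement membrane, where nidogens link them to type IV collagen. Inside the cell, talin, kindlin, vinculin, paxillin, zyxin, focal adhesion kinase and integrin-linked kinase join the integrin tail to actin and to signalling. In the liver, hepatic stellate cells, which store vitamin A and turn into myofibroblasts after injury, use integrins of the alpha v group to activate latent transforming growth factor beta, and they lay down laminin around the sinusoids.

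The genes described here are those whose symbol on the array begins with Itga, Itgb, Lama, Lamb or Lamc, together with Nid1, Nid2, Ilk, Ptk2, Tln1, Tln2, Pxn, Vcl and Zyx. That rule found 48 of the 16446 genes named on the array, each measured by 1 probe. They were 16 integrin alpha subunits, 8 beta subunits, 9 laminin chains, 2 nidogens, 7 proteins of the adhesion complex, and 6 genes that carry an integrin in their name without being a subunit. Itgad, Itgae, Itgb8 and Lamb1 were not matched to a probe and were not analysed here.

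Messenger RNA was profiled on single-colour arrays in hepatic stellate cells of mice with liver cirrhosis induced by CCl4, a hepatotoxin that all 6 samples share. Of these, 3 samples were wild type and 3 were SEPT4-KO, lacking a septin, a GTP-binding protein that forms filaments. The labels used here do not state age, sex, strain or the extent of the deletion. Nor do they say if the 3 samples of a genotype came from separate mice, so the p-values reflect the scatter of these samples only, and that scatter may be technical. Values are log2 signals, and a difference is knockout minus wild type with its standard error (SE) from limma. A gene passed where its p-value, adjusted over all 23473 probes, was under 0.05.

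The array medians were all 5.02, and 940 to 1255 probes of an array lay at its lowest value, where a level is only a bound. The highest values were 15.7 to 15.8 on wild-type arrays and 16.6 to 16.8 on knockout arrays, so scaling bears on bright genes. Over all probes the median difference was 0.12, and 62.6% of calls were higher. Quantile normalisation of the arrays brought these to 0.02 and 52.5%, and cyclic loess to 0.01 and 51.5%. Of 10 stellate cell markers all were measured. The brightest were Acta2, Pdgfrb, Cygb and Des, with mean log2 signals of 15.25, 9.34, 7.50 and 6.83 in wild-type cells. The dimmest were Ngfr, Lrat and Reln, at 3.57, 5.05 and 5.18. Of 9 hepatocyte markers, Fgb, Ttr, Apoa2, Alb1 and Cyp2e1 read 9.37, 8.13, 7.80, 6.79 and 5.19 in wild-type cells. The other hepatocyte markers, Hnf4a, Cps1, Apoa1 and Tat, read 3.93, 3.70, 2.73 and 2.10. The stellate cell markers differed between the genotypes: 6 rose and 2 fell, with a median of 0.56. Lrat rose by 2.41, Cygb by 2.05, Colec11 by 1.44, Rgs5 by 0.99, Hand2 by 0.83 and Pdgfrb by 0.30, whereas Acta2 fell by 0.56 and Des by 0.41. The log2 of their summed linear signal was 15.17 to 15.37 in wild-type and 14.77 to 14.86 in knockout cells. Acta2, with means of 15.25 and 14.69, made up most of this sum, so the sum does not show the rises of dimmer markers. The part of these marker shifts in the results below was not tested. The deleted gene itself was not analysed here, so it does not check the genotype labels. In such bulk samples, fewer cells of a type and less RNA per cell cannot be told apart.

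Of the 48 genes, 15 were higher in the knockout, 8 were lower and 25 did not pass. Over all probes 42.7% passed, 26.7% as higher and 16.0% as lower, and over all named genes 44.3%, 29.4% and 14.9%. The median difference was 0.13 over the 48 genes and 0.14 over all named genes. The groups did not overlap for 32 of the 48 (22 above, 10 below), against 57.6% of all named genes. The 48 genes as a set thus passed about as often as the array did, and the results lie in which members went which way. Bright genes passed more often. Of the 27 members at or above the median signal of the array, 19 passed, where 64.3% of named genes did, and of the 21 below it 4 passed, where 20.9% did. Of all 48 members, 12 passed with a difference of at least 0.5, where 24.0% of all named genes did.

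**Figure D1:**
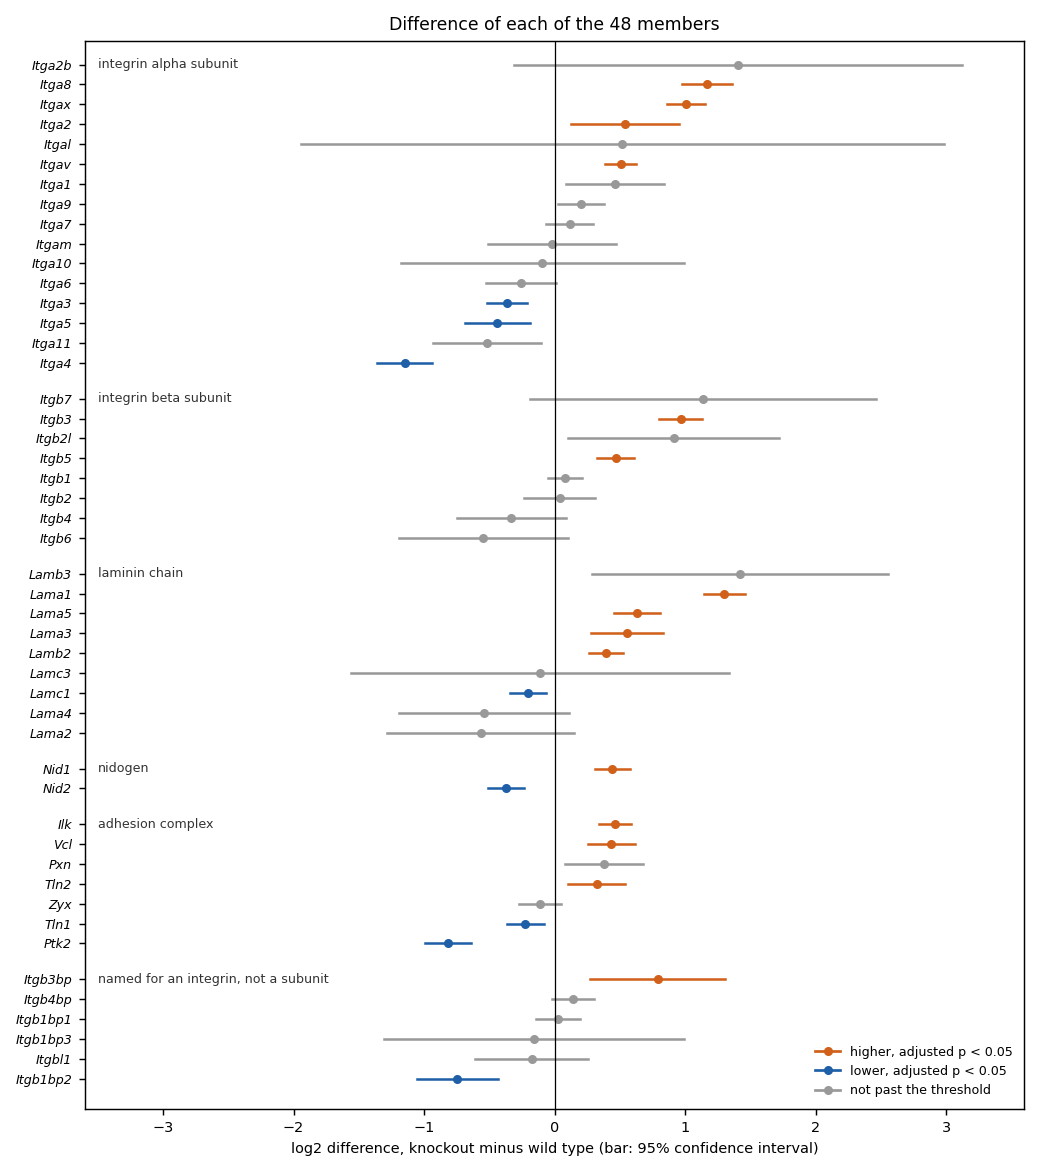
Log2 difference of each of the 48 genes, knockout minus wild type, grouped by role, with bars for the 95% confidence interval and colours for genes that passed at an adjusted p under 0.05. Lama1, Itga8, Itgax and Itgb3 lie farthest to the right and Itga4 and Ptk2 farthest to the left of those that passed, and dim genes such as Itgal, Itga2b and Lamc3 have intervals too wide to place them.

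Among the subunits of integrins that bind the RGD sequence of vitronectin, fibronectin and latent transforming growth factor beta, the alpha v subunit and its beta 3 and beta 5 partners were all higher in the knockout. Itgav, the alpha v subunit, read 10.33, 10.38 and 10.33 on the wild-type arrays and 10.82, 10.87 and 10.87 on the knockout arrays. All knockout arrays were above all wild-type arrays, with a difference of 0.51 ± 0.05 (SE, n = 3 per genotype) and an adjusted p of 0.00122. Itgb3, the beta 3 subunit, read 6.61, 6.57 and 6.59 in wild-type and 7.66, 7.52 and 7.48 in knockout cells. The groups were far apart compared with the spread within each, and the difference was 0.97 ± 0.06 (SE), or 1.95-fold, with an adjusted p of 0.000644. Itgb5, the beta 5 subunit, rose from 7.95 ± 0.06 to 8.42 ± 0.05 (SD, n = 3), a difference of 0.47 ± 0.06 (SE). After quantile normalisation Itgav, Itgb3 and Itgb5 differed by 0.33, 0.88 and 0.37, so the rise of the bright gene Itgav depended most on scaling in its size.

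Itga8, the alpha 8 subunit, which pairs with beta 1 and binds nephronectin, had the largest rise of the alpha subunits that passed. Its log2 signals were 6.35, 6.14 and 6.16 in wild-type cells and 7.42, 7.40 and 7.35 in knockout cells. The knockout arrays had an SD of 0.03 and lay wholly above the wild-type arrays, and the 2.25-fold difference had an adjusted p of 0.000619. Itga5, the alpha 5 subunit of the classical fibronectin receptor, went the other way. It read 4.99, 4.92 and 5.23 in wild-type and 4.60, 4.54 and 4.67 in knockout cells. Every knockout array was below every wild-type array, by -0.44 ± 0.10 (SE) on average, with an adjusted p of 0.0181. This call was lost without knockout replicate 1 (adjusted p of 0.0543) or knockout replicate 2 (0.0607). The beta 6 subunit Itgb6, an epithelial partner of alpha v, differed by -0.55 ± 0.25 (SE) and did not pass.

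The common partner of most of these alpha subunits showed no call. Itgb1, the beta 1 subunit, read 12.53, 12.46 and 12.42 in wild-type and 12.55, 12.56 and 12.55 in knockout cells. The knockout arrays stood just above the wild-type ones, and the difference of 0.08 had a 95% confidence interval of -0.05 to 0.21 and an adjusted p of 0.253. Its direction turned with scaling, to -0.12 after quantile normalisation (adjusted p of 0.0871) and to -0.16 after cyclic loess (adjusted p of 0.0339).

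Promoter sequences are shown for Itgav, Itgb5, Itga8 and Itga5, the RGD-binding subunits that passed and that the RefSeq table holds, because they moved in both directions. They were chosen after their values were seen. Each is the 250 bases before the annotated start on GRCm38.p6, read 5′ to 3′ along the gene, and capitals mark matches on either strand to the GC box GGGCGG, to the AP-1 site TGANTCA or to the CArG box, with overlapping matches counted separately.
Itgav, chr2:83724147-83724396, plus strand: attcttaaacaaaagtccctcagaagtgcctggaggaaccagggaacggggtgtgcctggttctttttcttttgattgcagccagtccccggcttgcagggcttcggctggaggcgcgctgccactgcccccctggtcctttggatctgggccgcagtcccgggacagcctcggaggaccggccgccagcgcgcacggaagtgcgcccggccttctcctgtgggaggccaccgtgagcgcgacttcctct
Itgb5, chr16:33829415-33829664, plus strand: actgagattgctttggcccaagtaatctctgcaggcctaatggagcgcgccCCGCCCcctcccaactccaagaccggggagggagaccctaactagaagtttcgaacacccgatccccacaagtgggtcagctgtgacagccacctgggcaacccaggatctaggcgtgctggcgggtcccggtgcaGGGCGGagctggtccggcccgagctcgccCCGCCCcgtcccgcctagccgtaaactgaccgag
Itga8, chr2:12301945-12302194, minus strand: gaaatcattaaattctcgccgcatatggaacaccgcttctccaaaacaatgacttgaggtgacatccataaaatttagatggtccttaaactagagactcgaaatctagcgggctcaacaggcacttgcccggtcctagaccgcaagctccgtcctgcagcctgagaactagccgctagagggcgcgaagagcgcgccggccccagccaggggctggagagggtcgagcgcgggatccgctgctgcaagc
Itga5, chr15:103366792-103367041, minus strand: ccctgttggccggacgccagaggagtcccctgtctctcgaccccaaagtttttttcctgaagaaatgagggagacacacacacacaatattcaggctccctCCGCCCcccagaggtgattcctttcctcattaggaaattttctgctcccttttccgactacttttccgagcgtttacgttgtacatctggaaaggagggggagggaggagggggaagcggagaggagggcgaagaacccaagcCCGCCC
The GC box occurred 3 times in the window of Itgb5, which rose, and 2 times in that of Itga5, which fell, and was not in the windows of Itgav and Itga8. Neither of the other motifs was in these 4 windows. Among the 31 members in the table, 13 held a GC box, against 32.7% of all 32851 windows of this length, 2 held TGANTCA (Itgax and Zyx), against 6.75%, and 3 held a CArG box (Itgb6, Lama2 and Vcl), against 1.47%. Members were counted as genes and the shares are of windows, so a gene with several windows would have had more chances. These matches describe letters in a window and do not show binding.

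Of the 4 subunits that bind collagen, 1 passed, where 44.3% of all named genes did. All 4 lay below the median signal of the array, where 20.9% of named genes passed. Itga2, the alpha 2 subunit, read 4.25, 3.79 and 4.09 in wild-type and 4.71, 4.68 and 4.35 in knockout cells. The groups did not overlap, though the lowest knockout array was close to the highest wild-type one, and the difference of 0.54 ± 0.16 (SE) had an adjusted p of 0.0484. The call was lost, at adjusted p-values of 0.105 to 0.129, without wild-type replicate 2 or 3 or knockout replicate 1 or 2. Itga1, the alpha 1 subunit, read 4.23, 4.47 and 4.69 in wild-type and 5.09, 4.80 and 4.87 in knockout cells. Its groups did not overlap either, but the difference of 0.46 ± 0.15 (SE) had an adjusted p of 0.0550, or 0.0378 without wild-type replicate 3. Itga11, the alpha 11 subunit of fibroblasts, differed by -0.52 ± 0.16 (SE) with an adjusted p of 0.0535, or 0.0253 without knockout replicate 2. The dim Itga10 differed by -0.09, with an interval of -1.18 to 0.99.

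The largest fall of any member was that of Itga4. This gene encodes the alpha 4 subunit, which binds VCAM-1 and fibronectin and is best known on leukocytes. Its signals were 6.27, 6.36 and 6.24 in wild-type and 5.12, 5.03 and 5.27 in knockout cells. No knockout array came near a wild-type one, and the difference of -1.15 ± 0.08 (SE), a 2.22-fold fall, had an adjusted p of 0.000730. Itga9, a close relative of alpha 4, differed by 0.20 ± 0.07 (SE) and did not pass at an adjusted p of 0.0698, though it did without knockout replicate 2, at 0.0413. Itgb7, a partner of alpha 4 on lymphocytes, was dim and differed by 1.14 ± 0.52 (SE) with an adjusted p of 0.141, or 0.0356 without wild-type replicate 2.

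The 6 genes counted here as leukocyte subunits were Itgal, Itgam, Itgax, Itgb2, Itgb2l and Itgb7, without Itga4. Of these Itgax alone passed, where 44.3% of all named genes did. Itgax encodes alpha X (CD11c), which pairs with beta 2 on dendritic cells and macrophages. It read 5.71, 5.75 and 5.72 in wild-type and 6.82, 6.67 and 6.72 in knockout cells. The knockout arrays were all about 1 log2 unit above the wild-type arrays, a 2.01-fold difference with an adjusted p of 0.000526. Its partner Itgb2 differed by 0.04, with an interval of -0.23 to 0.31, and Itgam, the alpha M subunit, by -0.02, with an interval of -0.51 to 0.47, and both changed sign with quantile normalisation and cyclic loess. The dim genes Itgal and Itgb2l differed by 0.52 and 0.91 and did not pass, and Itgb2l passed without knockout replicate 1, at an adjusted p of 0.0306. Of 11 measured markers of macrophages and other leukocytes, 2 rose and 2 fell. Clec4f, a Kupffer cell lectin, rose by 0.52 and Emr1, the F4/80 antigen, fell by 1.27, whereas Ptprc, which all leukocytes carry, differed by 0.10 and did not pass. The log2 of the summed signal of these markers was 9.76 to 9.87 in wild-type and 9.86 to 9.90 in knockout cells, and none lay at the lowest value on all arrays. Their part in the result for Itgax was not tested.

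Itga2b, the alpha IIb subunit that pairs with beta 3 on platelets, was dim and gave an uncertain difference of 1.41 ± 0.67 (SE), with 1 wild-type array at its lowest value. Of 5 measured platelet markers, Cxcl4 (platelet factor 4) rose by 0.41 and Gp5 was lower, with 1 knockout array at its lowest value, so that the size of its fall is not known. The log2 of their summed linear signal was 8.58 to 8.67 in wild-type and 8.97 to 9.07 in knockout cells. Most of this sum was Cxcl4, with means of 8.45 and 8.86. The part of these platelet markers in the rise of Itgb3 was not tested.

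Of the 4 subunits counted here as binding laminin (Itga3, Itga6, Itga7 and Itgb4), 1 was lower and 3 did not pass. Of all named genes 14.9% were lower and 29.4% higher. Itga3, the alpha 3 subunit, fell from 5.64 ± 0.02 to 5.28 ± 0.09 (SD, n = 3), a difference of -0.36 ± 0.06 (SE) with an adjusted p of 0.00732, and its groups did not overlap. Itga6, the alpha 6 subunit, differed by -0.26, its hemidesmosomal partner Itgb4 by -0.33 and the muscle subunit Itga7 by 0.12. These 3 did not pass and their groups overlapped, but Itga6 passed without knockout replicate 1, at an adjusted p of 0.0350.

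**Figure D2:**
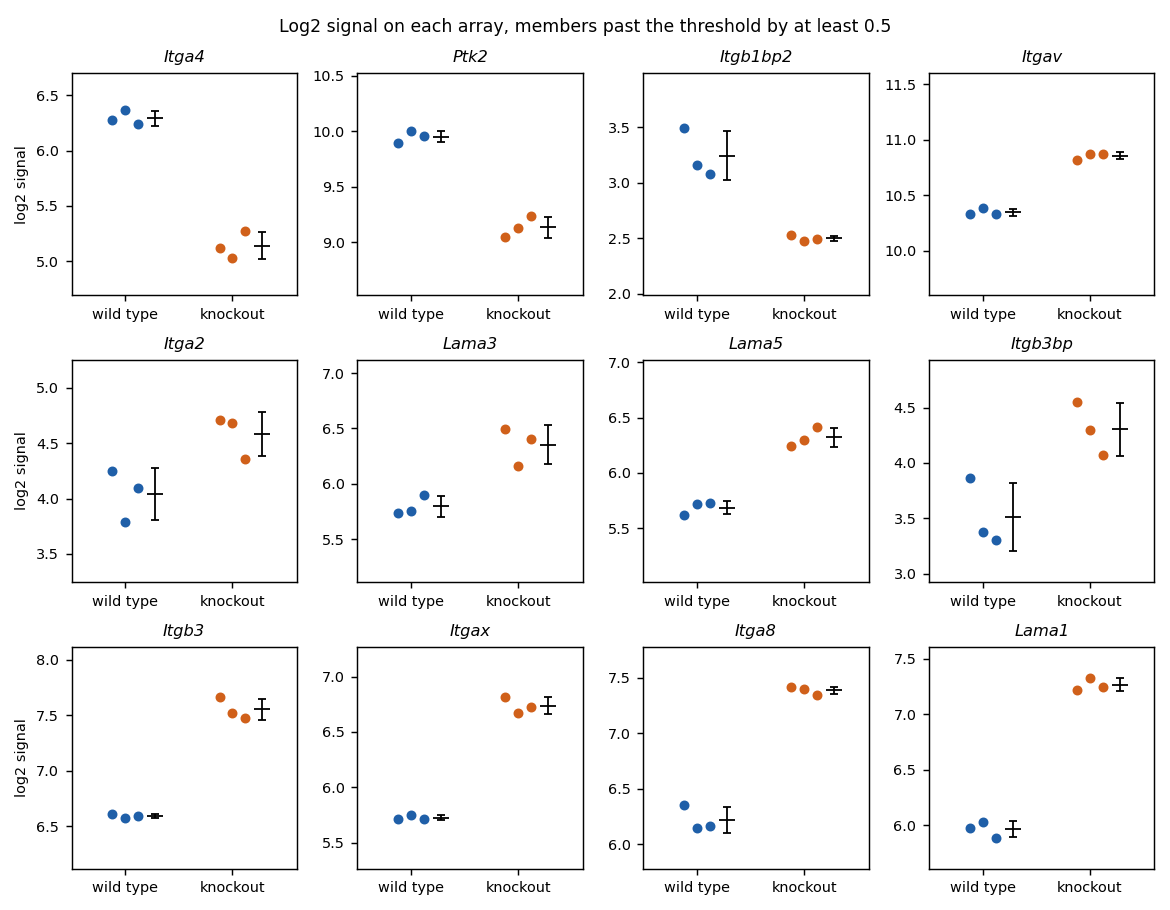
Log2 signal on each of the 3 wild-type and 3 knockout arrays for the 12 members that passed with a difference of at least 0.5, with the mean and SD of each genotype beside the points; every panel spans 2 log2 units. The points of the genotypes are apart in all panels, widest for Lama1, Itga8 and Itga4, and closest for Itga2 and Itgb3bp.

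Of 9 laminin chains, 4 rose and 1 fell, where 29.4% and 14.9% of all named genes did. The rises were of 3 alpha chains and beta 2, and the fall was of gamma 1. Lama1, the alpha 1 chain typical of early and epithelial basement membranes, had the largest rise of the members that passed. It read 5.98, 6.03 and 5.88 in wild-type and 7.22, 7.33 and 7.25 in knockout cells. The gap between the genotypes was many times the spread within them, with a difference of 1.30 ± 0.06 (SE), or 2.47-fold, and an adjusted p of 0.000446. Lama5, the alpha 5 chain of mature vessels and epithelia, read 5.62, 5.72 and 5.73 in wild-type and 6.24, 6.30 and 6.42 in knockout cells. Here too the groups were apart, with a difference of 0.63 ± 0.07 (SE). Lama3, the alpha 3 chain of epithelial laminin, read 5.73, 5.75 and 5.90 in wild-type and 6.50, 6.16 and 6.40 in knockout cells. Its knockout arrays spread more, but all lay above the wild-type arrays, and the difference of 0.56 ± 0.11 (SE) had an adjusted p of 0.0117.

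Lama2 and Lama4, the alpha chains made by muscle, fibroblasts and vessels, did not share this rise. Lama2 read 3.45, 3.08 and 3.42 in wild-type and 3.17, 2.19 and 2.89 in knockout cells. The groups overlapped, and the difference of -0.57 ± 0.28 (SE) had an adjusted p of 0.168. Lama4 differed by -0.54 ± 0.25 (SE), also with overlapping groups. Of the chains that the alpha chains join, Lamb2 (beta 2) rose by 0.39 ± 0.05 (SE), or by 0.21 after quantile normalisation. Lamb3, the epithelial beta 3 chain, was dim and differed by 1.42 ± 0.44 (SE) with an adjusted p of 0.0531, or 0.00980 without wild-type replicate 2. Lamc1, the gamma 1 chain of most laminins, read 12.03, 12.10 and 11.98 in wild-type and 11.79, 11.83 and 11.87 in knockout cells. All knockout arrays were lower, by a small margin, and the difference of -0.21 ± 0.05 (SE) had an adjusted p of 0.0309. That call was lost, at adjusted p-values of 0.0545 to 0.0987, on leaving out any 1 array other than wild-type replicate 3, whereas after quantile normalisation the fall was larger, at 0.42. The dim Lamc3 differed by -0.11, with an interval of -1.56 to 1.34.

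Markers of other cell types that make laminins were read as well. Of 4 measured bile duct markers Cdh1 (E-cadherin) rose by 0.63, and the log2 of their summed signal was 5.43 to 5.65 in wild-type and 5.80 to 6.01 in knockout cells. Of 9 endothelial markers, Eng and Vwf rose and Emcn fell. The dim Vwf had 1 wild-type array at its lowest value, so the size of its rise is not known. The endothelial sum was 8.27 to 8.44 in wild-type and 8.44 to 8.56 in knockout cells. Of 4 mesothelial markers Upk1b fell and none rose, and the sum was 5.91 to 6.001 and 5.34 to 5.60. Of 9 hepatocyte markers, Alb1 and Cps1 rose and Ttr fell, and the sum was 10.38 to 10.43 and 10.42 to 10.48. No marker in these lists lay at the lowest value on all arrays, and their part in the laminin results was not tested.

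The nidogens, which bridge laminin and type IV collagen, went in opposite directions. Nid1 read 13.21, 13.27 and 13.17 in wild-type and 13.61, 13.67 and 13.69 in knockout cells. The groups were apart, and the rise of 0.44 ± 0.05 (SE) had an adjusted p of 0.00254, but it came to 0.17 after quantile normalisation and after cyclic loess. Nid2 fell from 10.67 ± 0.06 to 10.30 ± 0.04 (SD, n = 3), by 0.37 on the log2 scale as deposited and by 0.55 after either scaling.

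Of the 7 proteins of the adhesion complex, 3 rose and 2 fell, against 29.4% and 14.9% of all named genes. The kinases moved apart. Ptk2, which encodes focal adhesion kinase, read 9.90, 10.002 and 9.96 in wild-type and 9.04, 9.12 and 9.24 in knockout cells. All knockout arrays were well below the wild-type ones, with a difference of -0.82 ± 0.07 (SE), a 1.76-fold fall, and an adjusted p of 0.00103. Ilk, the integrin-linked kinase, a scaffold on the beta subunit tail, read 12.51, 12.53 and 12.48 in wild-type and 12.93, 13.01 and 13.00 in knockout cells. It was higher on all knockout arrays, by 0.47 ± 0.05 (SE) as deposited and by 0.26 after quantile normalisation and 0.21 after cyclic loess, and it passed each time.

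The talins, which activate integrins and carry force to actin, also moved apart, by small amounts. Tln1 read 13.36, 13.39 and 13.33 in wild-type and 13.08, 13.13 and 13.21 in knockout cells. Its groups did not overlap, and the difference of -0.22 ± 0.05 (SE) had an adjusted p of 0.0248. The call was lost, at adjusted p-values of 0.0541 to 0.0873, on leaving out any 1 array other than knockout replicate 3, while the fall grew to 0.46 after quantile normalisation. Tln2 rose by 0.32 ± 0.09 (SE) with an adjusted p of 0.0330, and this call was lost after quantile normalisation, at 0.0826, after cyclic loess, at 0.0731, and, at 0.0583 to 0.103, on leaving out any 1 array other than wild-type replicate 1.

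Vcl, which encodes vinculin, the protein that reinforces talin under force, read 12.64, 12.57 and 12.43 in wild-type and 12.94, 12.99 and 13.01 in knockout cells. Every knockout array was higher, by 0.43 ± 0.07 (SE) on average with an adjusted p of 0.00673, and the rise came to 0.22 after quantile normalisation and 0.18 after cyclic loess. Its promoter is shown because it was the only member that passed whose window held a CArG box, the site of serum response factor. Capitals mark that box near the left end and 4 GC boxes, of which 2 overlap.
Vcl, chr14:20929148-20929397, plus strand, GRCm38.p6: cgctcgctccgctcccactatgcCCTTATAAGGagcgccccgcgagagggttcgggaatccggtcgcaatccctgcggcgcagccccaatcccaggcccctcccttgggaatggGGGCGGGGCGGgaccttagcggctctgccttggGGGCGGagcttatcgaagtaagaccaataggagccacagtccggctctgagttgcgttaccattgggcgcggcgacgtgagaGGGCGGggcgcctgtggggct
Pxn (paxillin), an adaptor phosphorylated by focal adhesion kinase, read 5.35, 5.27 and 5.42 in wild-type and 5.58, 5.95 and 5.64 in knockout cells. The knockout arrays were higher, but the difference of 0.38 ± 0.12 (SE) had an adjusted p of 0.0517. Zyx (zyxin), which gathers at tensed actin fibres, read 11.43, 11.43 and 11.27 in wild-type and 11.24, 11.27 and 11.30 in knockout cells. The groups overlapped and Zyx did not pass as deposited, with a difference of -0.11 and an interval of -0.27 to 0.05. Rescaled, it passed as lower: by quantile normalisation it fell by 0.28, at an adjusted p of 0.00497, and by cyclic loess it fell by 0.32, at 0.00398.

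**Figure D3:**
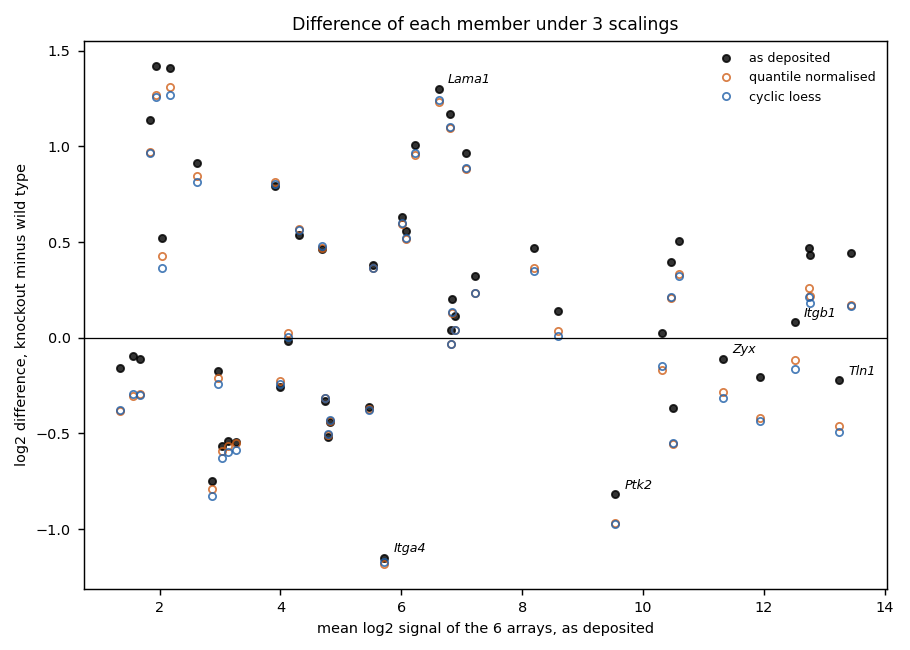
Log2 difference of each of the 48 genes, knockout minus wild type, against its mean log2 signal over the 6 arrays, with the values as deposited (filled) and after quantile normalisation or cyclic loess (open). Bright genes on the right, such as Itgb1, Zyx and Tln1, move down by about 0.2 with either scaling, while genes of middle signal such as Lama1 and Itga4 hardly move.

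The 6 genes named for an integrin without being a subunit were counted with the rest because the rule takes them. Itgb1bp2, the muscle chaperone melusin, read 3.50, 3.16 and 3.08 in wild-type and 2.53, 2.48 and 2.49 in knockout cells. The groups were apart, with a difference of -0.75 ± 0.12 (SE) and an adjusted p of 0.00665, but it was dim and did not pass with a trended and robust variance prior, at 0.106. Itgb3bp, a centromere protein, read 3.87, 3.38 and 3.31 in wild-type and 4.55, 4.30 and 4.07 in knockout cells. Its groups lay close without overlap, and the difference of 0.79 ± 0.20 (SE) had an adjusted p of 0.0292. The call was lost, at adjusted p-values of 0.0763 to 0.0911, without wild-type replicate 2 or 3 or knockout replicate 1 or 2. Itgb1bp1, Itgb1bp3 (now Nmrk2), Itgb4bp (now Eif6) and Itgbl1 differed by 0.03, -0.16, 0.14 and -0.18 and did not pass, and Itgb1bp1 changed sign with either scaling.

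Genes around these receptors were read from lists of ligands, basement membrane partners, adaptors and co-receptors. Ligands of integrins other than laminins were mostly lower: of 22, 12 fell and 5 rose, against 14.9% and 29.4% of all named genes. Their median difference was -0.23, which quantile normalisation moved to -0.43 and cyclic loess to -0.47. Thbs1 (thrombospondin 1) fell from 9.75 ± 0.07 to 8.23 ± 0.01 (SD, n = 3). Spp1 (osteopontin), a ligand of alpha v beta 3, fell by 1.26, and the dim Npnt (nephronectin), the ligand of alpha 8 beta 1, by 1.02. Itga8 and Npnt thus moved in opposite directions. Tgfbi and Emilin1 rose by 1.58 and 1.49, and Mfge8, a ligand of alpha v beta 3 and beta 5, by 0.43.

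Of 15 measured partners of laminin in the basement membrane, 5 rose and 3 fell, where 29.4% and 14.9% of all named genes did. Their median of 0.10 as deposited turned to -0.0395 after quantile normalisation and -0.0818 after cyclic loess. Col4a1, a type IV collagen chain, rose from 6.43 ± 0.06 to 6.99 ± 0.02 (SD, n = 3), while its partner chain Col4a2 fell by 0.41, or by 0.64 after cyclic loess. Col4a5 fell by 0.62 and Bcam, a laminin alpha 5 receptor, by 0.55. The laminin receptor dystroglycan (Dag1) rose by 0.53 and perlecan (Hspg2) by 0.50.

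Of 45 measured adaptors and kinases of focal adhesions, 11 rose and 12 fell, against 29.4% and 14.9% of all named genes. Their median was -0.05. After quantile normalisation or cyclic loess 18 fell, 12 and 9 rose, and the median was -0.15 either way. The largest rises were of Ankrd25 (now Kank2), a partner of talin, by 0.87, and of the adaptors Crk by 0.82 and Crkl by 0.80. Enah, which extends actin filaments, fell by 1.35, caveolin 1 (Cav1) by 0.88 and Lims2, a partner of integrin-linked kinase, by 0.78. Of 16 co-receptors, 5 rose and 3 fell, beside the same shares of 29.4% and 14.9%, with a median of 0.06. After quantile normalisation 6 fell and the median was -0.10, and cyclic loess gave 7 and -0.12. Syndecan genes were on both sides, with Sdc2 and Sdc3 higher by 0.66 and 0.59 and Sdc1 lower by 0.36. The tetraspanin Cd81 rose by 0.63, whereas the urokinase receptor gene Plaur fell by 1.23 and Cd47, which associates with alpha v beta 3, by 0.41. Cyclic loess brought the rise of Cd81 to 0.38, and the fall of Cd47 was larger when rescaled, with differences of -0.63 and -0.65.

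**Figure D4:**
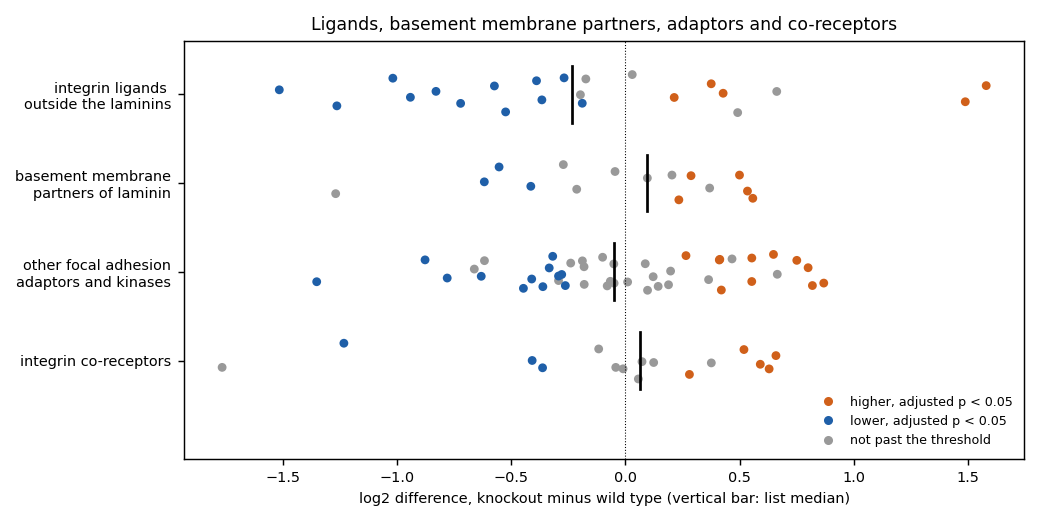
Log2 difference, knockout minus wild type, of each measured gene in the lists of integrin ligands (22 genes), laminin partners (15), adhesion adaptors and kinases (45) and co-receptors (16), 1 point per gene with a vertical bar at the list median. The ligand list has its median at -0.23 and the other medians lie between -0.05 and 0.10 as deposited, and all 4 medians were lower, and below 0, after either scaling.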

How the data were processed

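The deposited table holds log2 signals of single-colour (Cy5) arrays, which the authors had quantile normalised, per the labels. Array medians were equal but upper quartiles and highest values were not. No label gives the log base, which was inferred from their range. Background correction and scanner software: not given in the sources used here. The labelling text speaks of tumours and of a kit for microRNA, unlike the design, and the cell type and genotype labels were followed. Total RNA was extracted with phenol and chloroform, per the labels' protocols.

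Of 23473 probes, 16631 had 1 symbol in the platform annotation. The brightest probe stood for a gene. Symbols are printed as annotated, and 46 of the 48 are current in a mouse table on GRCm38.p6. Promoters came from RefSeq on that assembly, and 31 of the 48 genes matched.

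The fit used limma 3.58.1 (lmFit, eBayes; R 4.3.3) on all probes with no further normalisation. Tests were two-sided, with Benjamini-Hochberg adjustment over all probes and a threshold of 0.05. There were 4 residual degrees of freedom and 1.11 from the prior. The number of arrays limits the precision. The script was tested on simulated data. Figures used matplotlib 3.10.9.

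The members and lists were chosen with earlier results of these data known. Values on all arrays are given for members that passed with separate groups and a difference of at least 0.5, and for a fixed set of well-known members. From each list of neighbouring genes, up to 3 rises and 3 falls by size are named. As alternatives, arrays were rescaled (quantile normalisation, cyclic loess or median centring), each array was left out in turn, or arrays were weighted. Probes were left out if in the dimmest 25% or 50%, or if at the lowest value of an array. The linear signals were offset by their 10th percentile, the variance prior was trended and robust or left off, probes of a gene were averaged, and replicate numbers served as a block.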

Additional observations from a re-analysis of the deposited data

How the results depend on the processing

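Of the 23 members that passed, 16 kept their direction and their call under each of the 18 alternatives that tested them. Itga2, Itga5, Itgb1bp2, Itgb3bp, Lamc1, Tln1 and Tln2 kept their direction but lost the call at least once. Of the 25 that did not pass, 13 passed under some alternative. The members counted as higher numbered 13 to 15 on leaving out 1 array and 13 to 21 otherwise (21 with the trended and robust prior), and those lower 6 to 7 and 6 to 10. The median difference of the members, 0.13 as deposited, was 0.0378 after quantile normalisation, 0.0263 after cyclic loess, 0.32 without the dimmest 50% of probes, where 27 members were left, and 0.11 to 0.23 on leaving out 1 array, the highest without knockout replicate 3. The replicate numbers are not known to pair the samples: the deviations of same-numbered arrays had correlations of -0.0020 to 0.0077, and not every array correlated best with its own number. With the replicate block 14 members were higher and 7 lower, and 3 laminin partners were higher, 7 adaptors lower and 3 co-receptors higher. Of the co-receptors 6 were lower after quantile normalisation, 7 after cyclic loess and 5 with the trended and robust prior. On leaving out 1 array the adaptors that were lower numbered 8 to 13. Only members that did not pass changed direction. After quantile normalisation and cyclic loess, Itgam differed by 0.0222 and 0.0025, Itgb1 by -0.12 and -0.16, Itgb1bp1 by -0.17 and -0.15 and Itgb2 by -0.0355 and -0.0307, and of these only Itgb1 after cyclic loess passed. With array weights Itgam differed by 0.0799, Itgb1bp3 by 0.0934 and Lamc3 by 0.0129. On leaving out 1 array, none of these members passed, and their differences ran from -0.35 to 0.31 for Itga10, -0.26 to 1.24 for Itgal, -0.18 to 0.17 for Itgam, -0.0257 to 0.068 for Itgb1bp1, -0.50 to 0.31 for Itgb1bp3, -0.0070 to 0.12 for Itgb2 and -0.50 to 0.48 for Lamc3. The cause of these changes was not tested. Precision was lower for the 21 members below the median signal of the array, and 3 members lay at an array's lowest value at least once.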
